A study of Sus scrofa with 9 samples.

Results

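The 36 hairpins described here are candidates for pig microRNA genes for which the deposited table of putative new miRNAs listed a product from both sides of the stem, a -5p arm and a -3p arm under the same name. They were taken by name alone, after 4 both-armed names that are not analysed here had been set aside, and comprise 72 arms out of 426 arms in the putative new table and 526 arms in both deposited tables. The measurements came from 9 small RNA libraries of the longissimus dorsi, the long back muscle, of female Jinhua pigs, a Chinese breed. The groups were fetuses at day 90 of gestation (E90) and pigs at day 0, day 30, day 180 and 7 years after birth, all female and of the same breed, with no treatment or genotype named. E90, day 0 and day 30 had 1 library each, whereas day 180 and 7 years had 3 libraries each. The libraries held RNA of 15 pigs, and how these were spread over the libraries was not stated, so p-values below describe how libraries varied, which may be a technical spread alone.

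A miRNA is made from a transcript that folds back on itself into a hairpin. The enzyme Drosha cuts the hairpin off near its base and Dicer cuts off the loop, which leaves a short duplex of the 5p and the 3p strand with a few unpaired bases at each 3′ end. One strand is usually kept by an Argonaute protein and finds its targets mainly through its seed, bases 2 to 8, while the other strand is degraded, so finding both strands of a duplex is used as evidence that a hairpin is processed as a miRNA.

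Examples of the paired duplexes are shown first: 2 with overhangs of 2 nt at both ends, 1 listed in all 9 libraries, and 2 names of a chromosome 2 locus whose arms are compared further on. In each precursor below, as deposited with the entry, the capitals mark the 5p arm and then the 3p arm.
PN-10664314: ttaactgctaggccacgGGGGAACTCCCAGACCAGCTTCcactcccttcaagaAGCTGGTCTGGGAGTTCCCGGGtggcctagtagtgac
PN-94928232: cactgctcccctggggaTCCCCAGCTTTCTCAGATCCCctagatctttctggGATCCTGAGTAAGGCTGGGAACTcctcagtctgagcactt
PN-53138199: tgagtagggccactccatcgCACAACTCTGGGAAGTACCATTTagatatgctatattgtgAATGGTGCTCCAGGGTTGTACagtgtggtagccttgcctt
PN-151102661: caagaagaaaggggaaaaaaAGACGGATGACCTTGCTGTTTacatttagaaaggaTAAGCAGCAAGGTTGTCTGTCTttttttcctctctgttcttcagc
PN-151102665: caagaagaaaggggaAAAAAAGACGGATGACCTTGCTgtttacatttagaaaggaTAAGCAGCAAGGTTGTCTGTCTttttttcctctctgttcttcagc
PN-10664314 lies on the plus strand at chr3:10664314-10664575 and PN-94928232 on the plus strand at chr14:94928232-94928492 of Sscrofa10. PN-151102661 and PN-151102665 lie on the minus strand at chr2:151102661-151102921 and chr2:151102665-151102926, and their 100 nt precursors are the same sequence with another 5p arm. PN-53138199 was placed on an unnamed scaffold, as were 11 of the 36 hairpins in all. Another 23 were placed on a named chromosome and 2 on a sequence given as mt. No annotation of this build was used, so the genes and exons at these places are not given.

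Folding each deposited precursor with RNAfold showed that 17 of the 36 hairpins had the 2 arms paired with each other by at least 14 base pairs. In these 17 the arms shared 16 to 21 base pairs (median 18), the loop between them was 11 to 18 nt, and the precursor was 65 to 230 nt long (median 96). Among the 30 both-armed hairpins of the deposited conserved table, folded the same way, 22 had such a duplex. Both 3′ ends overhung by 1 to 3 nt in 10 of the 17 new duplexes and in 16 of the 22 conserved ones. The overhang was exactly 2 nt at both ends in 4 new duplexes, PN-10664314, PN-94928232, PN-80161038 and PN-151102658, and in 11 conserved ones. The shares are a description of unequal sets, since several new names describe the same place in the genome.

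**Figure D1:**
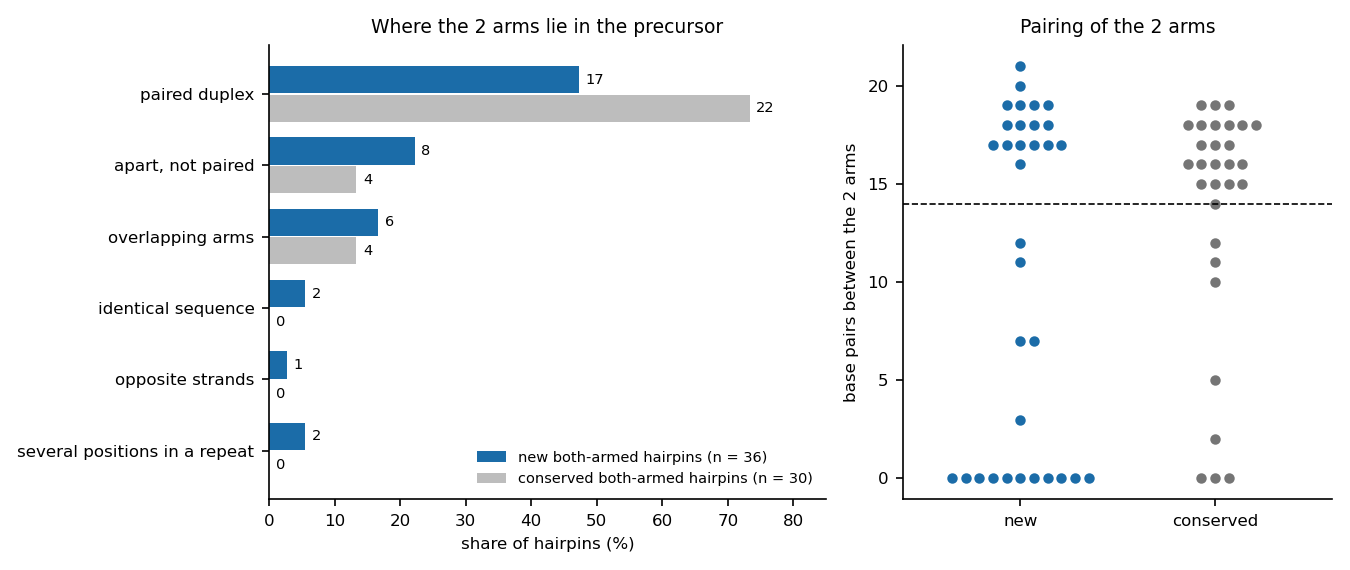
Position of the arms in the folded precursor. The left panel gives the share of hairpins (%) in each class with the count beside each bar, for 36 new and 30 conserved both-armed hairpins; the right panel gives the base pairs between the arms, 1 dot per hairpin that could be folded with both arms in place, with a dashed line at 14 base pairs. Paired duplexes make up 17 new and 22 conserved hairpins, and the classes of identical sequence, opposite strands and repeats hold new hairpins only.

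The other 19 hairpins were not counted as paired duplexes. In 8 the arms lay apart on the precursor and paired by 0 to 11 base pairs, and in 6 they overlapped by 7 to 19 nt, so that 1 stretch of RNA was listed under both arm names. The overlap is seen in the strongest hairpin of this kind, PN-868884, and in PN-40675019 (chr16:40675019-40675280, strand minus), whose arms are given here with the seed in capitals.
PN-868884-5p: cCCGCCCGtcgcccgcgcgc
PN-868884-3p: cCCGTCGCccgcgcgcgcgcgcgcccc
PN-40675019-5p: cAAACCAGtcaaaataaccata
PN-40675019-3p: cAGTCAAAataaccataa
The 3p sequence of each begins inside the 5p sequence. Overlapping arms were found in 4 of the 30 conserved hairpins too. PN-10664350 had its arms on opposite strands, and PN-645 and PN-679, both listed under mt, consisted of a short repeat in which an arm fits at several positions. Pairing of the arms was therefore not counted for PN-10664350, PN-645 and PN-679. In libraries 1 and 2 of day 180 the PN-10664350-5p product was a sequence also listed for PN-10664314-5p.

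In the last 2 hairpins, PN-124874040 and PN-64168, both arm names carried the same sequence. The 2 entries of PN-64168 were deposited with precursors of different length, shown here with the listed product in capitals.
PN-64168-5p: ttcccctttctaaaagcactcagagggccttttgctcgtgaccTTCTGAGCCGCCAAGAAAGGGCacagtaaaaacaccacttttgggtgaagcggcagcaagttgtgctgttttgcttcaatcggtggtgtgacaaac
PN-64168-3p: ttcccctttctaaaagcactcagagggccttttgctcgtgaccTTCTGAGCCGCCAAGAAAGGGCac
The product begins at position 44 of both precursors, of 139 nt under the 5p name and of 67 nt under the 3p name. For PN-124874040 (chr15:124874040-124874302, minus strand) the product began at position 16 of a 91 nt precursor under the 5p name and at position 89 of a 164 nt precursor under the 3p name. Neither hairpin listed both arm names in the same library.

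Sequences from the paired duplexes differed in make-up from the rest. The 27 distinct arm sequences of the 17 duplexes were all 21 to 24 nt long, had a median GC content of 50% and began with T (U in the RNA) in 51.9% of cases. The 33 distinct sequences of the other 19 hairpins were 17 to 28 nt long, with 72.7% at 20 to 24 nt, had a median GC content of 65.2% and began with C in 51.5% of cases. For comparison, the 99 distinct sequences of the conserved table had 88.9% at 20 to 24 nt, a median GC content of 43.5% and T as the first base in 39.4%.

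None of the 54 distinct seeds of the 36 hairpins was shared with an arm of the conserved table, and none of the 60 distinct sequences equalled a conserved one. Seeds were shared between names that list the same or nearly the same product: AAGCAGC by the 3p arms of 4 hairpins named after chr2:151102625 and its neighbours, CGCGCTG by the 5p arms of PN-133590719, PN-14862190 and PN-14862192, and CTAGGTT by the 3p arms of PN-85376602 and PN-85376639. By a shared stretch of 16 bases the 36 hairpins fell into 25 groups, 8 of which held 19 hairpins. The 17 paired duplexes therefore stand for fewer places than names. A further 27 entries outside the 36 shared 16 bases with one of them.

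Repeated names arose in 2 ways. PN-8701319 on chromosome 7 and PN-53295 on a scaffold had the same precursor and identical copies, as did PN-31817 and PN-93908925, so the same reads were listed at 2 places. Elsewhere a place was listed under different names in different libraries. Of 22 arm loci that joined a member with an overlapping entry on the same strand, 21 never had 2 of their entries in 1 library. Summed values below count such reads once.

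Most cells of the table were empty for these hairpins. Of 648 arm and library combinations, 462 (71.3%) had no value, against 77.9% for the putative new entries with 1 arm and 46.2% for the conserved table. Listed values ran from 3 to 804 copies with a median of 12, and none was under 3, so an empty cell is read as under 3 copies under that name and not as absence. It sets no limit for the product or place, which could be listed under another name. For example, PN-124874040-5p was empty in library 1 of day 180, where the same sequence had 93 copies as the 3p arm. A count of 3 corresponds to between 0.245 copies per 1000000 high-quality reads (RPM) in the deepest library, day 180 library 1 with 12259667 reads, and 0.863 RPM in the shallowest, day 30 with 3476614 reads. Such limits and the intervals below cover counting error only. In 12 hairpins a single library listed any product, and 2 hairpins, PN-870046 and PN-53138199, were listed in all 9. Both arms stood together in at least 3 libraries in 8 hairpins. The 5p arm had more copies in 20 hairpins, the 3p arm in 15, and in 1 the arms were equal.

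The muscle origin could be checked only weakly, since the muscle miRNA miR-1 appeared as miR-1-2-3p in 5 libraries at 3 to 17 copies and as miR-1a-2-5p in 6 libraries at 4 to 40 copies, and 0 entries were named miR-133 or miR-206. In bulk tissue, fewer cells of a type and less RNA per cell cannot be told apart.

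**Figure D2:**
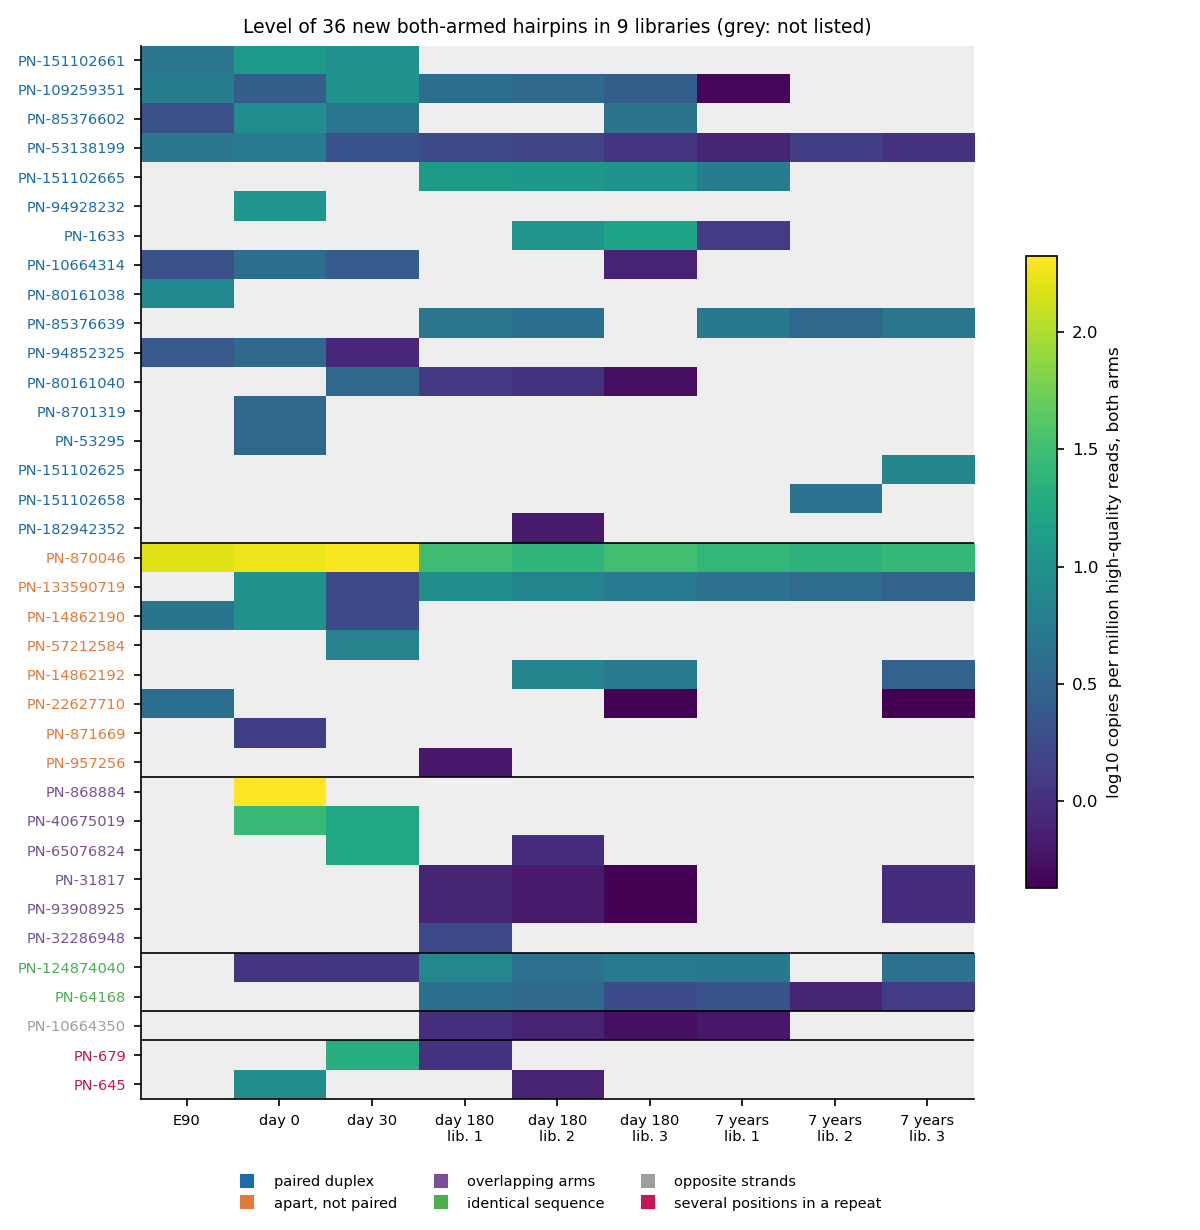
Level of each of the 36 hairpins (rows, coloured and grouped by arm geometry) in the 9 libraries (columns, in order of age), as log10 RPM summed over both arms, with grey for libraries in which the hairpin was not listed. PN-870046 is high in every column, PN-868884 is listed at day 0 alone, and pairs such as PN-151102661 and PN-151102665 fill complementary columns.

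Together the 36 hairpins reached 194 RPM at E90, 493 RPM at day 0 and 300 RPM at day 30. The day 180 libraries gave 82.4, 76.7 and 82.4 RPM and the 7 years libraries 51.8, 37.6 and 50.2 RPM. The later 6 libraries all lay below the early 3, and the 7 years libraries (46.5 ± 7.74 RPM, SD, n = 3) all lay below the day 180 libraries (80.5 ± 3.32 RPM, SD, n = 3). The sum at 7 years was 0.578 of that at day 180 per high-quality read, but 0.985 of it per listed copy of both tables. The lower level at 7 years is thus one per high-quality read and not per listed miRNA copy. Between later and early libraries the ratio was 0.193 per high-quality read and 1.37 per listed copy, with opposite directions.

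The hairpins with a paired duplex gave 25% to 43.8% of the copies of the 36 in the later libraries and 10.3% to 15.3% in the early ones. They reached 29.7 RPM at E90, 51.0 at day 0 and 33.7 at day 30, then 24.5, 33.4 and 36.1 RPM at day 180 and 13.6, 9.41 and 13.3 RPM at 7 years. Per high-quality read they averaged 12.1 ± 2.35 RPM at 7 years, against 31.3 ± 6.10 RPM at day 180 (SD, n = 3 each), with no overlap. Part of the duplex level depends on naming, since PN-1633 gave 10.7 and 15.7 RPM in libraries 2 and 3 of day 180. In the early libraries and library 1 of day 180 its place was listed only under a name not among the 36. The duplex shares of early and later libraries thus do not cover the same places. Arms lying apart gave 84.7% of the copies at E90, 39.2% at day 0 and 69.8% at day 30, mostly from PN-870046. Overlapping arms gave 0% at E90, 48.4% at day 0, from PN-868884 and PN-40675019, 11.4% at day 30, and at most 3.07% in any library of day 180 or 7 years.

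**Figure D3:**
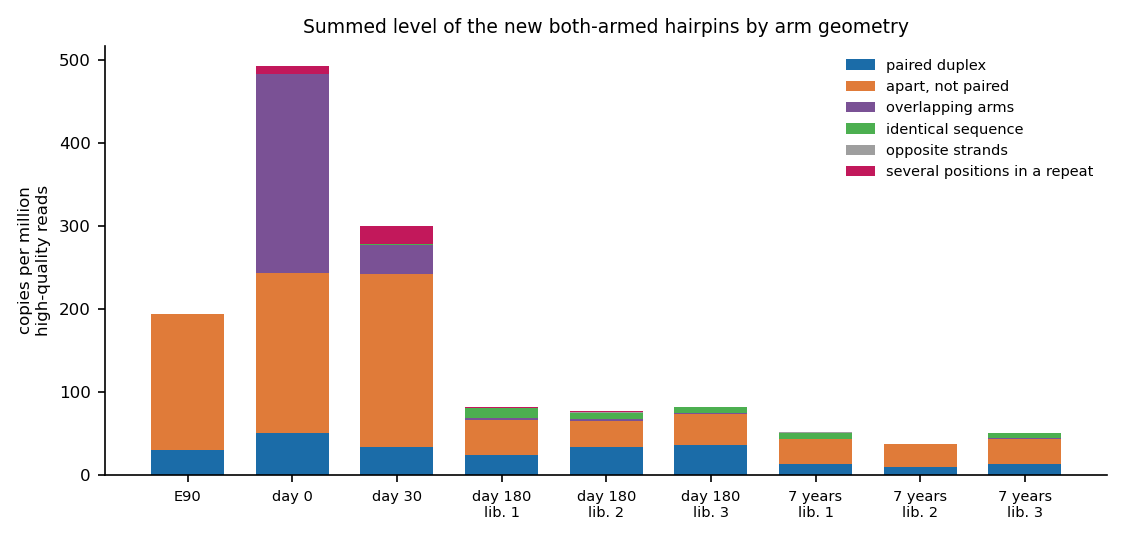
Summed level of the 36 hairpins in each library, in RPM, stacked by arm geometry, with libraries in order of age. The paired duplexes among the 36, without copies listed under other names, lie between 9.41 and 51.0 RPM. Arms lying apart and overlapping arms make up most of the 194 to 493 RPM in the E90, day 0 and day 30 libraries.

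PN-870046, on an unnamed scaffold, was the strongest of the 36 and gave 32.8% to 80.2% of their copies in a library. Its arms paired by 11 base pairs and lay 11 nt apart. The 3p arm had 573 copies at E90, 654 at day 0, 215 at day 30, then 213, 189 and 161 at day 180 and 93, 47 and 141 in the 7 years libraries. The 5p arm had 212, 157 and 482 copies at E90, day 0 and day 30, then 176, 73 and 130 at day 180 and 68, 41 and 111 at 7 years. Day 30 stood apart as the library with more 5p than 3p copies.

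The 5p share of PN-870046 was 27.01% at E90 (95% exact Clopper-Pearson interval 23.9 to 30.3%), 19.4% at day 0 (16.7 to 22.2%) and 69.2% at day 30 (65.6 to 72.6%). In the day 180 libraries it was 45.2, 27.9 and 44.7%, and in those of 7 years 42.2, 46.6 and 44.0%. The listed sequences show that the 5p name did not mean the same molecule at day 30.
PN-870046-5p, E90 and day 180 library 3: cCCCCGCGggggcgcttccccg
PN-870046-5p, the other 6 libraries but day 30: cCCCCGCGggggcgcttccccgcc
PN-870046-5p, day 30: cCCGGGGCcgagggagtgagacc
PN-870046-3p, all 9 libraries: cCCTCGCGggggcgcgccggg
The day 30 sequence begins at position 31 of the 191 nt precursor, the other 5p sequences at position 86, and the 3p sequence at position 121. The 3p product was the same in every base in all 9 libraries. The 5p share of later and early libraries could not be told apart (41.8 ± 6.97% in 6 later libraries, 38.5 ± 26.8% in 3 early ones, SD, two-sided exact permutation test p = 0.786, adjusted p = 0.898 over 24 hairpins of both tables). That call rests on day 30: without it, as an alternative added after the data were seen, the later shares averaged 41.8% (27.9 to 46.6%), all above the 2 early ones, which averaged 23.2%. With 2 early libraries left the difference of 18.6 percentage points was given no test. The share at 7 years was 44.3 ± 2.19%, against 39.3 ± 9.87% at day 180 (SD, n = 3 each, exact p = 0.7, the smallest possible being 0.1).

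**Figure D4:**
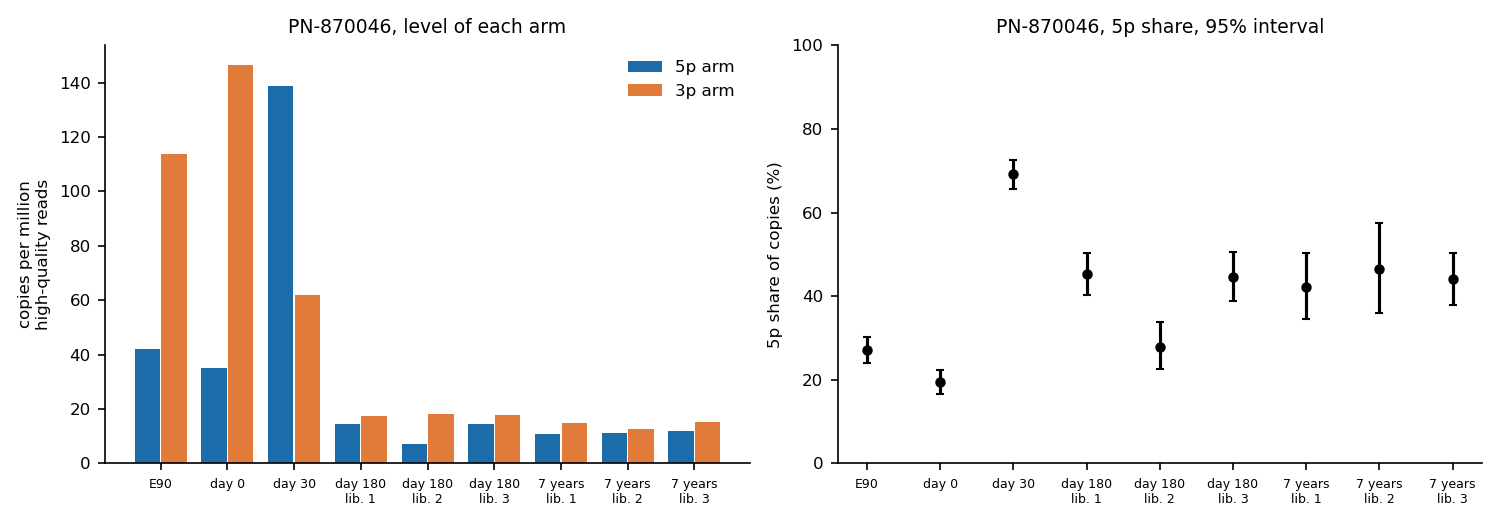
PN-870046 by library in order of age. The left panel gives the level of the 5p and 3p arm in RPM, the right panel the 5p share of copies (%) with its 95% exact interval. The day 30 library has 69.2% 5p copies, against 19.4 to 46.6% in the others.

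Only 7 years and day 180 had replicates, and these were compared to ask how the hairpins differ between these ages. With edgeR's quasi-likelihood test across all arms of both tables, 0 of 36 arms tested among these hairpins were called at an adjusted p under 0.05, where 3.43% of all 175 arms tested were called. Some of the 36, such as PN-868884-5p and PN-40675019-5p, had no copies at either age. They passed the filter through early libraries and could not be called. Of all 175 arms, 131 had a fold change other than 0. In a fit of the 6 libraries of these ages alone, 0 of 13 arms were called, where 2 of all 61 were. Of the 36, 3 had an unadjusted p under 0.05 (22 of all 175 arms), PN-109259351-5p, PN-151102625-3p and PN-151102625-5p. DESeq2's Wald test called 0 (8 of all 175) with 1 such p (19 of all 175). PN-151102625 was listed in library 3 of 7 years alone and passed the filter through it, while other libraries listed its place under other names. With these names joined, its log2 fold changes were -0.20 for the 3p arm (SE 0.58) and 0.05 for the 5p arm (SE 0.40). With overlapping entries joined, as described below, 1 of 30 loci was called (background 3.23%), the one that holds PN-1633 and a stronger name not among the 36. PN-109259351-5p had 3 copies in 1 of 3 libraries at 7 years, against 49, 37 and 24 copies at day 180, a log2 fold change (7 years over day 180) of -3.48 (SE 1.45, edgeR adjusted p = 0.346). PN-870046 had log2 fold changes of 0.56 for the 3p arm (SE 0.32, adjusted p = 0.593) and 0.82 for the 5p arm (SE 0.40, adjusted p = 0.512) after TMM scaling. Both turned negative, -0.32 and -0.08, when scaled by total reads, which moved the median arm by -0.82. By listing alone, 16 of the 36 names (44.4%) were found at 7 years and 23 (63.9%) at day 180, against 33.6% and 62.1% of all 456 names of both tables, and a place listed under another name counts as not found.

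More arms were called between the 6 later libraries (day 180 and 7 years) and the 3 early ones (E90, day 0 and day 30). Of 16 arms of these hairpins that passed the filter, 8 were called, where 59.3% of all 91 arms tested were called, so the share is near the background. In the later libraries 6 of them were higher (background 20.9%) and 2 were lower (background 38.5%). All 8 were listed in one of the groups alone and passed the filter through it, so they had to differ and their count supports nothing. Scaled by total reads, 10 arms were called (background 64.8%), 5 higher (background 12.1%) and 5 lower (background 52.7%) in the later libraries. Fold changes are later over early after TMM scaling, and scaling by total reads moved the median arm by -1.66. Higher in the later libraries were PN-151102665-5p (log2 fold change 8.34, SE 2.27, edgeR adjusted p = 0.0107), PN-151102665-3p (7.91, adjusted p = 0.0127), PN-85376639-3p (7.80, adjusted p = 0.00642), PN-85376639-5p (7.07, adjusted p = 0.00677), PN-14862192-5p (7.78, adjusted p = 0.0291) and PN-64168-5p (7.55, SE 1.69, adjusted p = 0.00431). Lower were PN-151102661-5p (-7.64, SE 1.23, adjusted p = 0.0029) and PN-14862190-5p (-6.94, adjusted p = 0.00364). These fitted values rest on groups in which an arm was listed nowhere, so they depend on the fit's prior count and bound nothing. The call of PN-14862192-5p was lost with total reads (edgeR adjusted p = 0.0681), without E90 (0.0901) and without day 0 (0.0616). PN-870046 had a log2 fold change of -0.99 for the 5p arm (SE 0.60, edgeR adjusted p = 0.166) and -0.88 for the 3p arm (SE 0.42, adjusted p = 0.0888) after TMM scaling, neither of them called. Total reads gave -2.63 (adjusted p = 0.00163) and -2.74 (adjusted p = 0.0006), and DESeq2's Wald test called the 3p arm (-0.88, adjusted p = 0.0042). The 5p values include day 30, where another product was listed under that name, so they compare unlike products.

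All but 1 of these 8 calls concern a name that replaced an overlapping name, and the joined entries, an alternative chosen after the data were seen, gave smaller values. With entries joined, 10 of 17 loci holding these hairpins were called (background 60%), 5 higher (background 21.1%) and 5 lower (background 38.9%) in the later libraries, and 3 of the lower ones hold mostly copies of names not among the 36. Joined loci, too, could pass the filter through the group in which they are high, so this count supports nothing either. PN-14862190-5p had 24, 40 and 6 copies at E90, day 0 and day 30, and PN-14862192-5p, whose product is shorter by 2 nt than the day 0 product, had 70 and 48 copies in libraries 2 and 3 of day 180 and 25 in library 3 of 7 years. Joined, they had a log2 fold change of 0.79 (SE 1.38, edgeR adjusted p = 0.641). PN-133590719-5p on chromosome 8 listed the same sequences with 40 and 6 copies at day 0 and day 30, then 113, 70 and 48 at day 180 and 27, 14 and 25 in the 7 years libraries. Joined with its overlapping entry it was called as higher in the later libraries after TMM scaling (edgeR adjusted p = 0.0273, log2 fold change 1.83, SE 0.65). In RPM the joined entry averaged 5.33 ± 2.35 in the later and 5.14 ± 3.63 in the early libraries (SD), with overlap. The difference thus appeared with TMM scaling and not per high-quality read. In the 6 libraries that listed both places its copies equalled those of the joined chromosome 12 entries, which were not called. The lone call without such a partner was PN-64168-5p, at 51, 37 and 16 copies at day 180, 13 and 12 in libraries 1 and 3 of 7 years and none in the early libraries. Its sequence was listed as the 3p arm with 3 copies in library 2 of 7 years.

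The locus on chromosome 2 gave the fullest record of a duplex. Its 4 names were each used in different libraries: PN-151102661 at E90, day 0 and day 30, PN-151102665 in the day 180 libraries and library 1 of 7 years, PN-151102658 in library 2 of 7 years and PN-151102625 in library 3. Joined, the 5p arm had 20, 49 and 29 copies at E90, day 0 and day 30, then 87, 63 and 61 at day 180 and 22, 14 and 34 in the 7 years libraries. The 3p arm had 5, 4 and 5 copies in the early libraries, then 68, 59 and 35 at day 180 and 14, 3 and 35 in the 7 years libraries. The 3p arm was thus low in all early libraries and in 1 library of 7 years.

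In RPM the 3p arm of this locus averaged 3.64 ± 1.88 in the later libraries (SD, n = 6), against 1.11 ± 0.290 in the early ones (SD, n = 3), with overlap only at library 2 of 7 years. After TMM scaling the log2 fold change of the 3p arm was 3.40 (SE 0.78, edgeR adjusted p = 0.00276). This arm passed the filter through the later libraries, where it is high, so the call was favoured from the start and supports nothing. The 5p arm averaged 5.13 ± 1.68 RPM in the later libraries, against 7.76 ± 3.53 RPM in the early ones, and its log2 fold change of 1.10 after TMM scaling (SE 0.60, adjusted p = 0.127) had the opposite sign. At 7 years the 5p arm averaged 3.64 ± 0.119 RPM, against 6.63 ± 0.541 RPM at day 180 (SD, n = 3 each), without overlap, while TMM scaling gave a log2 fold change of 0.05 (SE 0.40, edgeR adjusted p = 1). The 5p share needs no scaling. It was 56.1, 51.6 and 63.5% at day 180 and 61.1, 82.4 and 49.3% at 7 years, against 80.0, 92.5 and 85.3% at E90, day 0 and day 30. The means were 60.7 ± 11.9% in the later and 85.9 ± 6.25% in the early libraries (SD, n = 6 and 3), a difference of -25.2 percentage points (two-sided exact permutation test p = 0.0476, adjusted p = 0.119 over 25 hairpins). The groups overlapped through library 2 of 7 years, which had 17 copies in all.

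Under the 4 names the 5p product had 3 different 5′ ends and therefore 3 different seeds, shown in capitals.
PN-151102661-5p, E90, day 0 and day 30: aGACGGATgaccttgctgttt
PN-151102665-5p, day 180 and library 1 of 7 years: aAAAAAGAcggatgaccttgct
PN-151102625-5p, library 3 of 7 years: aAAAAAGAcggatgaccttgct
PN-151102658-5p, library 2 of 7 years: aCGGATGAccttgctgtttaca
PN-151102665-3p, the 3p product of all 9 libraries: tAAGCAGCaaggttgtctgtct
The 5p product began at position 21 of the precursor in the early libraries, at position 16 in 5 later libraries and at position 23 in library 2 of 7 years. The 3p product began at position 56 in every library. With the early 5p product the overhangs were 0 and -1 nt, with that of position 16 they were -5 nt at both ends, and with that of position 23 they were 2 nt at both ends (a negative overhang is a 3′ end that stops short of its partner).

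The locus on chromosome 15 had a steady 5′ end, and its 5p shares at different ages are given because they did not overlap between 7 years and day 180, a difference that did not pass the test. PN-85376602 (chr15:85376602-85376863) and PN-85376639 (chr15:85376639-85376901), both on the plus strand, listed the same duplex.
PN-85376602-5p: tGACGGGAactccttaccattc
PN-85376602-3p: aCTAGGTTgggagttcctgttgt
Joined, the 5p arm had 6, 23 and 10 copies at E90, day 0 and day 30, then 30, 20 and 25 at day 180 and 13, 4 and 12 in the 7 years libraries. The 3p arm had 4, 17 and 7 copies in the early libraries, then 30, 24 and 17 at day 180 and 20, 9 and 34 at 7 years. At 7 years the 3p arm exceeded the 5p arm in 3 of 3 libraries.

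Its 5p share was 39.4, 30.8 and 26.1% at 7 years, against 50, 45.5 and 59.5% at day 180, without overlap. The means were 32.1 ± 6.75% at 7 years and 51.7 ± 7.18% at day 180 (SD, n = 3 each), a difference of -19.6 percentage points (exact p = 0.1, the smallest 3 against 3 allows, adjusted p = 0.5 over 15 hairpins). At E90, day 0 and day 30 the share was 60, 57.5 and 58.8% (58.8 ± 1.25%), against 41.9 ± 12.4% in the later libraries (exact p = 0.0714, adjusted p = 0.162). The intervals of single libraries are wide, for example 9.09 to 61.4% in library 2 of 7 years with 13 copies. In the joined fit, after TMM scaling, the 3p arm was called between later and early libraries (edgeR adjusted p = 0.0229, log2 fold change 2.08, SE 0.71) and the 5p arm was not (1.07, SE 0.64, adjusted p = 0.162). The 3p arm passed the filter through the later libraries, the group called higher, so its call was favoured from the start and supports nothing. Joined entries were not fitted with total reads, so whether this call holds under another scaling was not tested. In RPM the 3p arm averaged 2.65 ± 0.641 in the later and 2.20 ± 1.51 in the early libraries, with overlap, and the 5p arm went the other way, 1.93 ± 0.656 in the later and 3.07 ± 1.99 in the early libraries.

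**Figure D5:**
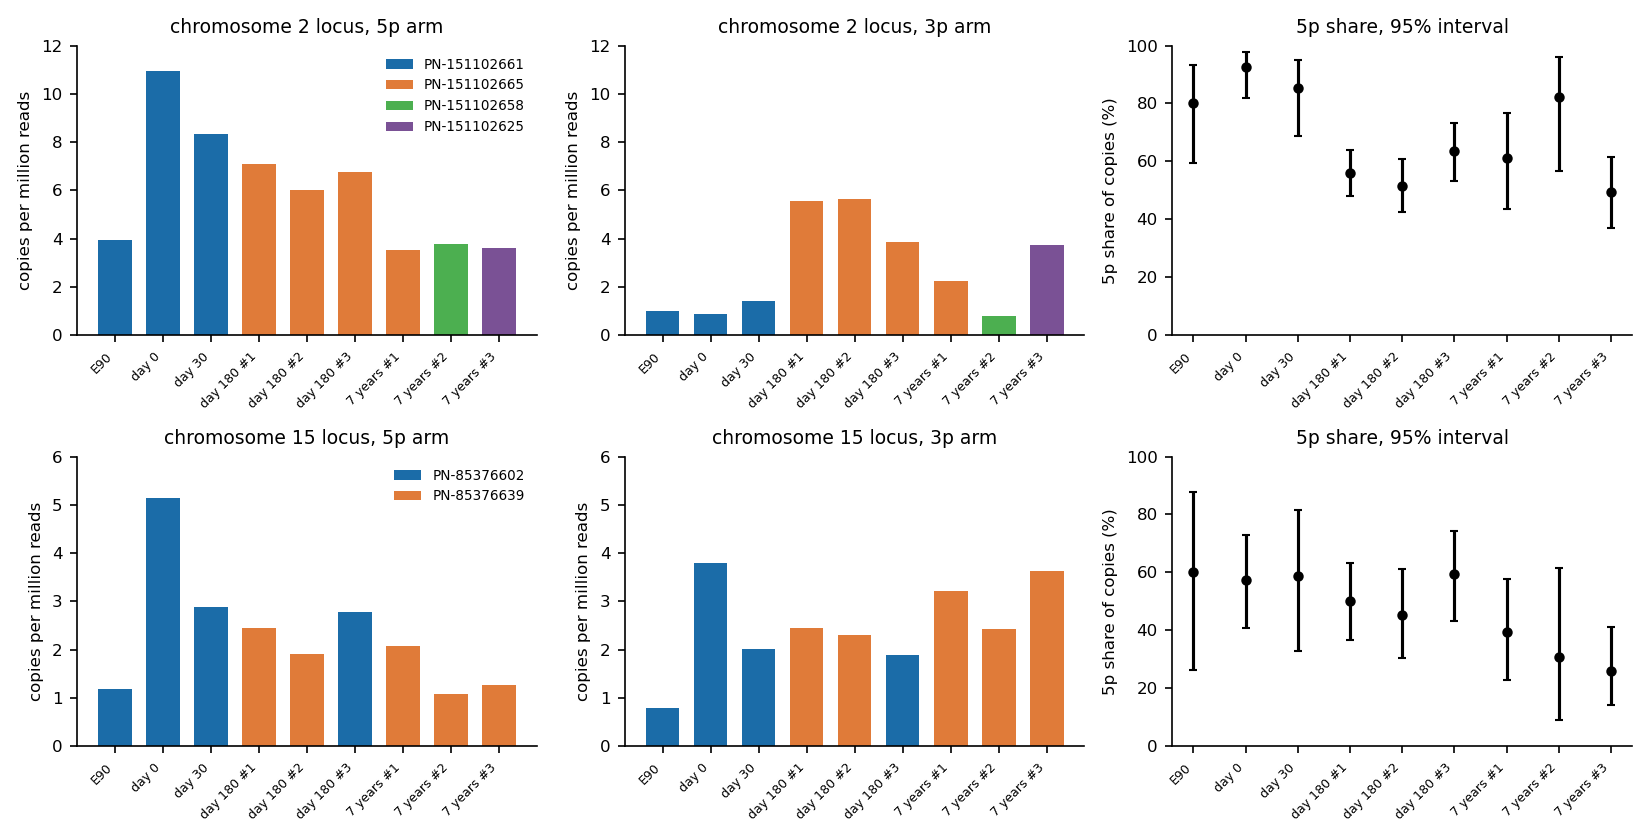
The chromosome 2 locus (top) and chromosome 15 locus (bottom) in libraries ordered by age. Left and middle panels give the 5p and 3p arm in RPM, coloured by the name under which the copies were listed; right panels give the 5p share of copies (%) with its 95% exact interval. At the chromosome 2 locus the share is 80.0 to 92.5% in the E90, day 0 and day 30 libraries and 49.3 to 82.4% later, and at the chromosome 15 locus it is 26.1 to 39.4% at 7 years, against 45.5 to 59.5% at day 180.

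PN-53138199 was listed in all 9 libraries, with the same 5p sequence in each. The 5p arm had 25, 25 and 7 copies at E90, day 0 and day 30, then 14, 11 and 10 at day 180 and 5, 5 and 7 in the 7 years libraries. The 3p arm was listed with 7 and 5 copies in libraries 1 and 2 of day 180 and 3 in library 3 of 7 years. In RPM the 5p arm averaged 1.03 ± 0.224 in the later libraries (SD, n = 6), against 4.19 ± 1.91 in the early ones (SD, n = 3), without overlap. After TMM scaling it was called in neither comparison (later over early, log2 fold change -0.18, SE 0.63, edgeR adjusted p = 0.815), whereas total reads called it as lower in the later libraries (-2.01, SE 0.66, adjusted p = 0.0186). The arm passed the filter through the early libraries, where it is high, so the call with total reads supports nothing. PN-109259351 on chromosome 5 was likewise carried by its 5p arm, with 29, 12 and 30 copies at E90, day 0 and day 30, and its 3p arm was listed once, with 5 copies at day 30.

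Other duplexes were listed at fewer ages. PN-94928232 was listed at day 0 alone, with 32 copies of the 5p and 17 of the 3p arm. PN-94852325 was listed at E90, day 0 and day 30, with 7, 16 and 3 copies of the 3p arm, and PN-94852287-5p, an overlapping entry outside the 36, had 5 and 3 copies in libraries 1 and 3 of day 180. At the chromosome 9 locus of PN-80161038 and PN-80161040 the joined 3p arm had 35, 39 and 12 copies at E90, day 0 and day 30 and 9, 8 and 5 at day 180, and was not listed at 7 years. It was lower in the later libraries after TMM scaling (edgeR adjusted p = 0.0397, log2 fold change -2.35, SE 0.91). This arm passed the filter through the early libraries, where it is high, so the call was favoured from the start and supports nothing. PN-1633, with 106 and 136 copies of its 3p arm in libraries 2 and 3 of day 180 and 8 in library 1 of 7 years, shared its place with a stronger name that is not among the 36, so its own values give only some of the libraries of that place.

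Hairpins not counted as paired duplexes included the most uneven ones. PN-868884 had 804 copies of the 3p and 137 of the 5p arm at day 0 and was listed in no other library. PN-40675019 had 88 and 49 copies of the 5p arm and 38 and 10 of the 3p arm at day 0 and day 30. PN-65076824 had 10 copies of the 5p arm alone in library 2 of day 180, against 5 copies of the 5p and 55 of the 3p arm at day 30. PN-679 had 10 copies of the 5p and 3 of the 3p arm in library 1 of day 180, against 6 and 69 copies at day 30. Each of these 2 hairpins thus changed its more abundant arm between libraries, as did PN-870046 and PN-124874040, and these were all 4 such cases among 33 single names with at least 10 copies in some library. In PN-870046, PN-65076824 and PN-679 the change came with another product under the same arm name. In PN-124874040 the same sequence was listed under the other arm name with another precursor. Joined names could change too, as at the chromosome 15 locus, where the 5′ ends stayed the same. PN-124874040-5p had 5 and 4 copies at day 0 and day 30, 46 and 50 in libraries 2 and 3 of day 180 and 33 and 41 in libraries 1 and 3 of 7 years, while library 1 of day 180 listed the same sequence as the 3p arm with 93 copies. The 13 hairpins not given by library had 6 to 49 copies each over all 9 libraries.

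The ends of the products were compared in the 41 arms listed in at least 2 libraries. The 5′ end was the same in all libraries in 28 of them, the 3′ end in 24, and the whole sequence in 19. Names with a paired duplex kept their 5′ end, while the 13 arms with a moving 5′ end belonged to PN-870046, PN-65076824, PN-645, PN-679, PN-31817, PN-93908925, PN-10664350, PN-133590719 and PN-14862190, none of which was counted as a paired duplex. Since a moved 5′ end could also open a new name, as on chromosome 2, this count covers movement within a name only. For PN-10664350-5p the count reflects sequences of PN-10664314-5p, from the other strand, listed under its name in libraries 1 and 2 of day 180.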

How the data were processed

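Small RNA of the longissimus dorsi was measured in 9 libraries grouped by the age in the labels. The deposited tables give counts, whole numbers of copies per arm and library, with the most abundant sequence of each arm and its length, per the file headers, which also give the high-quality reads (3476614 to 12259667) and the assembly Sscrofa10. Aligner, caller and annotation were not given in the sources used here. Copies were scaled to copies per 1000000 high-quality reads (RPM), and an empty cell was taken as 0.

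Precursors were folded with RNAfold 2.7.2. An arm was placed with up to 2 mismatches, and at least 14 base pairs between arms made a duplex. The count test was that of edgeR 4.0.16, run in R 4.3.3 (quasi-likelihood, TMM, filterByExpr with a minimum count of 10 and total of 15, Benjamini-Hochberg adjustment over all arms of both tables, threshold 0.05), with identical entries counted once. The fit of 7 years against day 180 used all 9 libraries with a term per stage, and later against early libraries were fitted as 2 groups. The steps were tested on simulated data. Arm shares of libraries with at least 10 copies were set against each other with exact permutation tests, two-sided (scipy 1.17.1), whose smallest p is 0.1 for 3 against 3 and 0.0238 for 3 against 6. Entries of the same arm and strand that start within 60 bp and share 16 bases were joined as an alternative chosen after seeing the data. Others were DESeq2 1.42.0, other scalings, filters and copies for empty cells, and leaving out libraries.

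Named with their values were the 12 hairpins with the highest level averaged over the 5 stages, those with a called arm and those whose more abundant arm changed; PN-1633, PN-10664314, PN-10664350, PN-94928232, PN-94852325, PN-80161038, PN-80161040, PN-645, PN-31817, PN-93908925, PN-53295, PN-8701319, PN-151102625 and PN-151102658 were named after their values were seen. The hairpins and lists were chosen with earlier results of these data known. Same-numbered libraries of day 180 and 7 years deviated with correlations of -0.014, -0.208 and -0.175 and were not taken as pairs. Known miRNAs were compared only within the deposited conserved table.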

Additional observations from a re-analysis of the deposited data

How the results depend on the processing

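The number of arms called at 7 years against day 180 among these hairpins was 0, and it stayed 0 with DESeq2 size factors, total reads, no filter, DESeq2's test and the 6 libraries alone. In these alternatives 2 to 14 of all arms were called. Arms without copies at either age could not be called in the fits of all 9 libraries. With empty cells as 2 copies it was 1 of 40 (PN-109259351-5p, background 6 of 189). With overlapping entries joined it was 1 of 30 (background 5 of 155), a locus holding PN-1633 and a stronger name not among the 36. When a library was left out it was 0 to 2, with PN-151102665-5p and PN-151102665-3p called without library 1 of 7 years (background 6 of 177). The other 7 years libraries listed the place of these 2 arms under other names. With the replicate number as a block, 0 of 13 arms were called (background 1 of 61). Later against early libraries, 8 calls of 16 arms (background 54 of 91) became 19 of 69 with no filter (background 71 of 495). These counts rest on different sets of arms. When a library was left out there were 5 to 10 calls. The ends of that range were 5 of 13 arms without library 2 of day 180 (background 44 of 81) and 10 of 20 without E90 (background 55 of 114). The split of 6 higher and 2 lower was 5 and 5 with total reads and 8 and 2 with DESeq2 size factors. Among all 91 arms it was 19 higher and 35 lower, then 11 and 48 with total reads and 27 and 32 with DESeq2 size factors.

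The log2 fold change of PN-870046-5p in later over early libraries, -0.99, ran between -1.12 and 0.76 when a library was left out. It was 0.76 (edgeR adjusted p = 0.383) without day 30, the library with another product under that name. At 7 years over day 180, total reads gave -0.32 for PN-870046-3p and -0.083 for PN-870046-5p, and empty cells as 2 copies gave -0.061 for PN-870046-3p. The summed level at 7 years over day 180 was 0.578, and became 0.985 per listed copy, 0.415 without PN-870046 and 0.545 to 0.633 when a library was left out. Later over early it was 0.193, and 1.37 per listed copy. The cause of these changes was not tested. Arm shares of single names kept their direction under the alternatives that gave a value. Depth limits the rest, since the median listed value was 12 copies and values under 3 were not listed.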

Other observations

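Some of the 27 entries outside the 36 hairpins that share 16 bases with one of them fill the libraries in which the hairpin has no value. PN-133590720-5p was listed with 24 copies at E90, the library without PN-133590719-5p. PN-124874041-5p was listed with 10 copies in library 2 of 7 years, the later library without PN-124874040. PN-80161039-3p was listed with 39 copies at day 0, between PN-80161038-3p at E90 and PN-80161040-3p at day 30. PN-675-3p was listed with 29 copies at E90, with PN-645-3p at 29 copies at day 0 and PN-679-3p at 69 copies at day 30. For PN-10664314 and PN-10664350 the listings ran on both strands of chromosome 3, with PN-10664348-5p at 6, 11 and 5 copies at E90, day 0 and day 30 and PN-10664349-5p at 13 and 5 copies in libraries 1 and 2 of day 180.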
